A study of Mus musculus with 57 samples.

Results

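A set of 9 genes of NAD synthesis and tryptophan breakdown was followed across a mouse kidney injury series: Acmsd, Qprt, Kmo, Haao, Kynu, Afmid, Nampt, Nmrk1 and Nadk. They were taken by name, as the probe sets annotated with exactly 1 gene symbol equal to one of these 9, out of 19938 genes measured that way. Each of the 9 genes had 1 such probe set, and all 9 passed the filter on dim probe sets that left 19302 genes for testing. No measured value entered the choice by rule, although earlier results of these data were known when the genes were proposed.

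NAD carries electrons in energy metabolism and is used up by enzymes such as the PARPs and sirtuins, so cells rebuild it continuously. In the de novo route, Tdo2, Ido1 or Ido2 open the ring of tryptophan. Afmid (arylformamidase) then releases kynurenine, Kmo hydroxylates it, Kynu (kynureninase) cleaves the product, and Haao opens the ring of 3-hydroxyanthranilate to give an unstable semialdehyde. That semialdehyde either closes on its own to quinolinate, which Qprt turns into nicotinate mononucleotide, or is drawn off by the decarboxylase Acmsd, so Acmsd stands at the branch that leads away from NAD. In the salvage routes Nampt, the rate-limiting enzyme, recycles nicotinamide and Nmrk1 phosphorylates nicotinamide riboside, while Nadk converts NAD to NADP. Proximal tubule cells are a known site of the de novo route in the kidney.

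Gene expression had been measured on 57 Affymetrix mouse gene arrays, which fall into 19 groups. Of these arrays 51 came from translating ribosome affinity purification (TRAP) and 6 from whole kidney total RNA. In TRAP, ribosomes that carry the tagged protein eGFP-L10a are pulled down with antibodies to GFP, and the mRNA bound to them is measured. Ischemia-reperfusion injury (IRI) was made by clamping both renal pedicles for 28 min, and sham mice had the same surgery without the clamp. All mice were male, of a strain labelled as a mix of C57BL/6 and 129.

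Each of 4 Cre alleles was combined with the allele Rosa26-CAGGS-eGFPL10a, and every group of these lines had 3 arrays. The nephron line (six2-CRE, which marks descendants of nephron progenitors) had mice without surgery at 6 weeks of age, sham mice at 24 h, IRI mice at 4 h and IRI mice at 24 h, these last 3 groups at 8 weeks. The interstitial line (foxd1-CRE, whose lineage also includes podocytes) and the endothelial line (cdh5-CRE) had no-surgery, sham and IRI groups at 24 h, all at 6 weeks. The myeloid line (lyz2-CRE, labelled macrophage/monocyte) had no-surgery and sham groups at 7 weeks and an IRI group at 9.5 weeks, so age and injury cannot be told apart there. L10a background mice carried the tag allele without Cre. The labels call them homozygous in one field and Rosa26-CAGGS-eGFPL10a/+ in another, and say that the line on its own tags podocytes and some collecting duct cells. Wild-type background mice, named as C57BL/6, had no tag at all and measure RNA that the beads bind without it. Both backgrounds had 2 sham and 4 IRI arrays at 24 h and 8 weeks. Total RNA came from Rosa26-CAGGS-eGFPL10a/+ littermates without Cre, 3 sham and 3 IRI, at 24 h and 8 weeks. A 4 h sham group was not analysed here, so the 4 h arrays were set against the 24 h sham. Going by their sample numbers, the 4 h arrays were submitted apart from all the others. In comparisons that use them, time and any effect of that separation cannot be told apart.

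The TRAP arrays had median intensities of 105.8 to 128.4 and the arrays of total RNA had medians of 43.9 to 53.3, so the 2 kinds were scaled apart and no level is compared across them. Defining markers of the labelled cell types were high in the no-surgery lines: the endothelial marker Pecam1 had a mean of 11.98 in the endothelial line against 6.94 in the nephron line, the pericyte marker Pdgfrb 12.04 in the interstitial line against 8.12, and the macrophage marker Adgre1 12.21 in the myeloid line against 6.14 (log2 intensity, n = 3 arrays each). Untagged wild-type sham arrays held such RNA too. Interstitial markers summed to 15015 to 15864 there and to 20273 to 24022 in interstitial sham. Endothelial markers summed to 12442 to 13395 there and to 43916 to 47831 in endothelial sham. For macrophage markers the sums were 3822 to 3951 and, in myeloid sham, 50474 to 55237. Without surgery, the endothelial line also held macrophage markers. Of these, 10 of 10 were higher than in the mean of the other lines, where 20.7 percent of all genes were higher. Their sums were 30884 to 32977, against 51389 to 53738 in the myeloid line and 1711 to 1849 in the nephron line. In the same test 7 of 7 lymphocyte markers were higher. Lymphocyte sums were 1967 to 3354 in the endothelial line and 2539 to 2869 in the myeloid line, so they were not particular to the endothelial line. RNA of proximal tubule was present in all lines, since the phosphate carrier Slc34a1 had means of 12.48 to 12.94 in the interstitial, endothelial and myeloid lines and 13.24 in the nephron line. In the nephron line at 24 h, 4 of 4 injury genes (Havcr1, Lcn2, Krt20 and Sox9) were higher than in sham. The third total RNA array after IRI stood apart from the other two for some of the 9 genes, which is given where it matters.

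The stretches of 250 bases before the transcription start are printed for 3 of the genes, as examples of the range among these genes: Kmo and Haao were called lower at 24 h in the nephron line, Nampt was not, and their base composition differs. The letters are from RefSeq, assembly GRCm38.p6, which held a promoter for 8 of the 9 genes (Kynu is named only), and they run 5′ to 3′ on the strand of the gene. Kmo is at chr1:175631943-175632192 (plus strand), Haao at chr17:83846791-83847040 (minus strand) and Nampt at chr12:32820085-32820334 (plus strand). The stretches of Kmo and Nampt end just before the annotated gene, while that of Haao lies inside the annotated span of its gene, before an internal start. Capitals mark matches, on either strand, to TGACCT (a nuclear receptor recognition hexamer), to CAAAGNNCA (the core of an HNF4-type site, where N is any base) or to GGGCGG (the GC box).
Kmo: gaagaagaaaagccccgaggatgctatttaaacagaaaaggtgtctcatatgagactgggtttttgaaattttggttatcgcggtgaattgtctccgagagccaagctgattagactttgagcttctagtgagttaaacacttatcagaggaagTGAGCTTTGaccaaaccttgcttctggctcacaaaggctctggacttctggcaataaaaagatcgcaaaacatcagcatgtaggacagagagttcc
Haao: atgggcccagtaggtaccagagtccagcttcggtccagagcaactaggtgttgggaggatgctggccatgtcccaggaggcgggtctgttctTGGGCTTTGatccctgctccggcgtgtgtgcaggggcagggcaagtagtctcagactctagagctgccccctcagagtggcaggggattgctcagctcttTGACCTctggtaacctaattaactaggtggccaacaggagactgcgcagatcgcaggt
Nampt: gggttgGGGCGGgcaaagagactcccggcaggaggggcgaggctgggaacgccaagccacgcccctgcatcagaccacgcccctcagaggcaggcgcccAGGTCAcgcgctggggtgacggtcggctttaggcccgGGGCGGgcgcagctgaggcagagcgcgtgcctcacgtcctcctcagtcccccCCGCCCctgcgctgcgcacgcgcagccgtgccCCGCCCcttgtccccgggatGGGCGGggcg
The Kmo stretch had 5 CpG dinucleotides and 42.8% G+C, against medians of 6 CpG and 52.4% over 32851 promoters. The Haao stretch had 6 CpG and 58.4% G+C, and that of Qprt, which is not printed, 6 CpG and 60.8%. Afmid had 15 CpG and 59.6% G+C, so genes called lower at 24 h had promoters of either kind. Nampt had 27 CpG, 75.6% G+C and 5 GC boxes, and Nmrk1 had 21 CpG and 69.2% G+C with none. TGACCT was found in Haao and Nampt, once each, and in 14% of all promoters. CAAAGNNCA was found in Kmo and Haao, once each, and in 5.49% of all promoters. GGGCGG was found in Nampt, Afmid and the second of 2 Nadk promoters, and in 32.7% of all promoters. The motifs were picked after their matches had been seen, and a match is only a description of the letters.

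The positions of 8 of the genes in that build are as follows: Kmo at chr1:175632193-175660853, Kynu at chr2:43555258-43683048, Nadk at chr4:155562381-155591001, Qprt at chr7:127107770-127122029, Afmid at chr11:117825503-117839908, Nampt at chr12:32820335-32853369, Haao at chr17:83831348-83848981 and Nmrk1 at chr19:18632016-18652428.

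At 24 h after IRI the nephron arrays held less message for the de novo enzymes and for Nmrk1, while Nampt and Nadk did not pass the test. Against sham, 7 of the 9 genes were lower and none was higher at an adjusted p under 0.05, where 28.5 percent of all genes tested were called in either direction and 14.7 percent were called lower. The median log2 fold change of the 9 genes was -1.44 and that of all genes tested was -0.043. The 3 IRI arrays lay below the 3 sham arrays for all 9 genes, but the share of all genes separated in this way was not counted. Nephron sham and no-surgery arrays, between which none of the 9 was called, were also free of overlap for most of them. These were Acmsd, Qprt, Kmo, Haao, Afmid, Nampt and Nmrk1. In bulk material of this kind, fewer cells of a type and less RNA per cell cannot be told apart.

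Acmsd, the branch enzyme that leads away from NAD, had the largest change of the 9. Its log2 intensities were 11.70, 11.82 and 11.61 in sham and 8.44, 8.67 and 8.30 at 24 h. The lowest sham array was thus far above the highest IRI array. Acmsd was 9.48-fold lower (log2 fold change -3.24 ± 0.45 SE, limma adjusted p = 2.31e-07, 95% interval -4.15 to -2.34).

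The other enzymes of the route fell as well. Afmid, which releases kynurenine, read 11.20, 11.26 and 11.28 in sham and 9.58, 9.54 and 9.59 at 24 h, with hardly any spread in either group. It was 3.20-fold lower (log2 fold change -1.68 ± 0.24, adjusted p = 3.06e-07). Kmo, the kynurenine hydroxylase, read 11.59, 11.73 and 11.69 in sham and 9.85, 9.85 and 9.79 at 24 h. It was 3.59-fold lower (-1.84 ± 0.28, adjusted p = 1.28e-06). Haao, which makes the semialdehyde, read 11.75, 11.97 and 11.85 in sham and 10.60, 9.99 and 10.24 at 24 h, a little more scattered after IRI. It was 2.98-fold lower (-1.58 ± 0.29, adjusted p = 3.58e-05). Qprt, the enzyme that commits quinolinate to NAD, read 11.27, 11.48 and 11.54 in sham and 10.09, 10.32 and 10.43 at 24 h. It was 2.21-fold lower (-1.15 ± 0.25, adjusted p = 0.000425), the smallest of the called changes in this route. The 95% intervals of Acmsd (-4.15 to -2.34) and Qprt (-1.66 to -0.63) did not overlap, although the difference between the 2 genes was not tested.

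Among the de novo enzymes Kynu, the kynureninase, was the exception in its reliability, since its call was lost in some alternatives. It read 7.85, 7.66 and 9.46 in sham and 6.80, 7.01 and 7.41 at 24 h, and 1 sham array stood well above the other two. The log2 fold change was -1.25 ± 0.48 (adjusted p = 0.045). Without the third sham array it was -0.68 (adjusted p = 0.397), without the first IRI array -1.12 (adjusted p = 0.147) and without the second -1.22 (adjusted p = 0.0997). Against the no-surgery arrays, which read 6.93, 8.09 and 7.16, it was -0.32 (adjusted p = 0.705).

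Among the salvage and phosphorylation enzymes, Nmrk1 fell and the other two did not pass the test. Nmrk1, the nicotinamide riboside kinase, read 11.21, 11.35 and 11.31 in sham and 9.31, 10.32 and 9.92 at 24 h, with the IRI arrays more spread than the sham arrays. It was 2.72-fold lower (-1.44 ± 0.42, adjusted p = 0.00659), and without the first IRI array the change was -1.17 (adjusted p = 0.0631). Nampt, the rate-limiting salvage enzyme, read 10.85, 10.91 and 10.96 in sham and 10.49, 10.63 and 10.63 at 24 h. The groups did not overlap, but the change of -0.33 ± 0.17 was not called (adjusted p = 0.143, 95% interval -0.66 to 0.01). Nadk, the NAD kinase, read 11.92, 11.84 and 11.78 in sham and 11.54, 11.69 and 11.64 at 24 h, a change of -0.23 ± 0.12 (adjusted p = 0.172). Both were called at about the same sizes with array weights (adjusted p = 0.00413 for Nampt and 0.0109 for Nadk) and when the compared groups were fitted alone (0.00666 and 0.0389). They were also called when only TRAP arrays entered the fit (0.0252 and 0.049), a setting chosen after the data had been seen. Over all alternatives the change ran from -0.35 to -0.11 for Nampt, with limma adjusted p up to 0.701. For Nadk it ran from -0.26 to -0.18, with adjusted p up to 0.391. The no-surgery arrays, used as control in 1 alternative, read 10.70, 10.74 and 10.65 for Nampt, nearer to the IRI arrays than sham was.

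**Figure D1:**
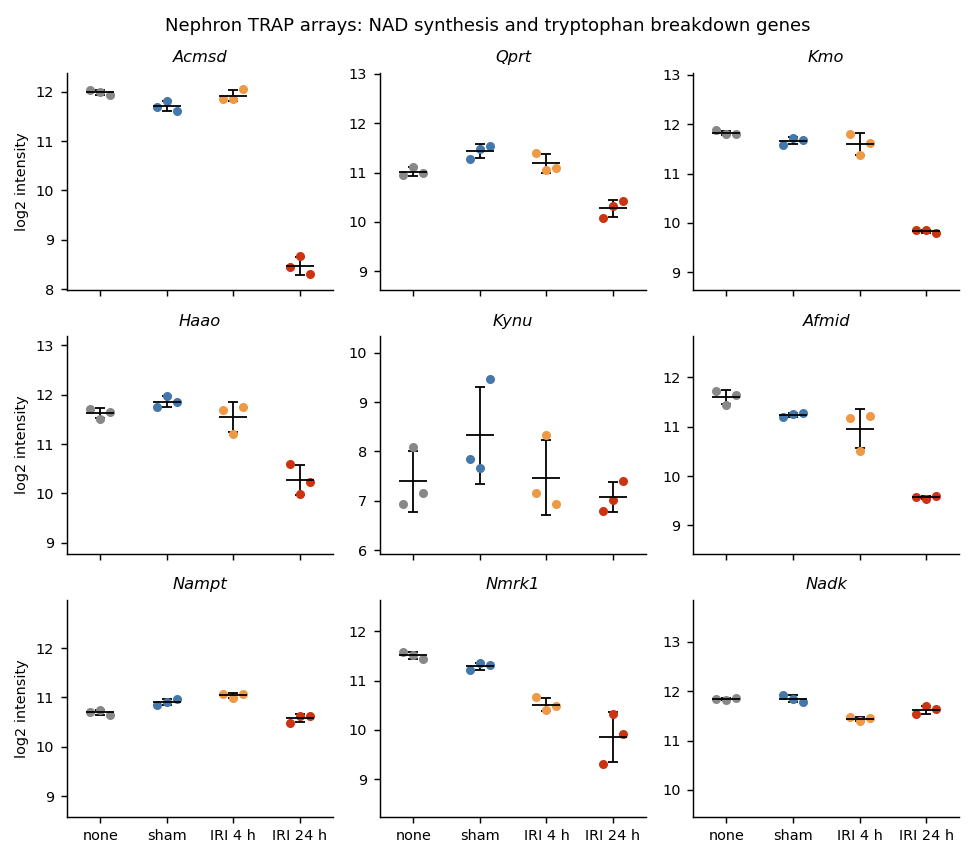
Log2 intensity of each of the 9 genes in the nephron TRAP arrays, by group on the x axis (no surgery, sham, IRI 4 h, IRI 24 h), with a point per array, a long bar at the mean and whiskers of 1 SD (n = 3 arrays). Every panel spans the same height in log2 units, so the drop of Acmsd from a mean of 11.71 to 8.47 can be set beside that of Nampt from 10.91 to 10.58.

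At 4 h Nadk was lower, and none of Afmid, Kmo, Kynu, Haao, Acmsd and Qprt passed the test. Of the 9 genes only Nadk was called, as lower, where 18.4 percent of all genes were called, 7.60 percent higher and 10.8 percent lower. Nadk read 11.47, 11.39 and 11.46 at 4 h, below all sham arrays (-0.41 ± 0.12, adjusted p = 0.0127). Without the first sham array (adjusted p = 0.0576) or the second 4 h array (adjusted p = 0.0531) that call was lost. Nmrk1 read 10.66, 10.40 and 10.48 at 4 h, also below all sham arrays, but its change of -0.78 ± 0.42 was not called (adjusted p = 0.213). It was called with array weights (adjusted p = 0.00212), in the compared groups alone (0.000449) and when only TRAP arrays entered the fit (0.00772).

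Acmsd read 11.86, 11.86 and 12.05 at 4 h, slightly above sham (0.21 ± 0.45, adjusted p = 0.823, 95% interval -0.70 to 1.12). Kmo read 11.81, 11.37 and 11.63, overlapping sham (-0.07 ± 0.28). Afmid read 11.18, 10.50 and 11.21, with 1 low array and a change of -0.28 ± 0.24. Qprt (-0.24 ± 0.25), Haao (-0.31 ± 0.29) and Kynu (-0.85 ± 0.48) overlapped sham as well, and none was called. Nampt read 11.07, 10.99 and 11.06, above all sham arrays, with a change of 0.13 ± 0.17 that was not called (adjusted p = 0.674).

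Between 4 h and 24 h after IRI, 6 of the 9 genes fell, where 27.5 percent of all genes were called, 14.8 percent higher and 12.7 percent lower. Acmsd fell by 3.46 ± 0.45 on the log2 scale (adjusted p = 7.77e-08), Kmo by 1.78 ± 0.28, Afmid by 1.39 ± 0.24, Haao by 1.27 ± 0.29 and Qprt by 0.91 ± 0.25 (adjusted p = 0.00514). Nampt, which had been highest at 4 h, fell by 0.46 ± 0.17 (adjusted p = 0.033), and leaving out any 1 of the 6 arrays took its adjusted p to between 0.0537 and 0.117. Nmrk1 (-0.66 ± 0.42, adjusted p = 0.272), Nadk (0.18 ± 0.12) and Kynu (-0.40 ± 0.48) were not called. This comparison shares the 24 h arrays with the one against sham, and both comparisons against sham share the sham arrays.

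Sham surgery without clamping gave no call among the 9 genes in the nephron line, where 1.74 percent of all genes were called between sham and no surgery (0.746 percent higher and 0.990 percent lower). By limma 0 of the 9 had an unadjusted p under 0.05, and fitting these groups alone called 2. The values were -0.27 ± 0.45 for Acmsd, 0.41 ± 0.25 for Qprt and 0.22 ± 0.17 for Nampt. The no-surgery mice were 6 weeks old and the sham mice 8 weeks, so age and surgery cannot be told apart there.

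Proximal tubule markers moved in the same comparisons. Of 20 such markers, 11 were lower and none higher at 24 h in the nephron line (median log2 fold change -0.77), while at 4 h 1 was higher and none lower. Their summed intensity ran from 105314 to 112774 in the sham arrays, from 109444 to 118795 at 4 h and from 63889 to 66905 at 24 h. Within the list the changes were uneven: the transporters Slc7a13 (-2.45 ± 0.40) and Slc22a7 (-2.01 ± 0.43) and the creatine pathway enzyme Gatm (-1.39 ± 0.26) fell, while Slc34a1 (-0.13 ± 0.15), Slc5a2 (0.10 ± 0.29) and Miox (-0.03 ± 0.19) were not called. Distal nephron markers fell too, 4 of 8, from sums of 24718 to 26384 in sham to 16643 to 18417 at 24 h, after sums of 31258 to 33817 at 4 h. Macrophage marker sums ran from 1569 to 1651 in sham and from 1946 to 2370 at 24 h. The part of these shifts in the changes of the 9 genes was not tested.

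Without surgery, the nephron line held more message for most of these enzymes than the other lines. Set against the mean of the other 3 lines, 7 of the 9 genes were higher and 1 was lower, where 51.0 percent of all genes were called and 29.0 percent were higher. Nmrk1 was 2.19 ± 0.34 higher on the log2 scale (adjusted p = 5.28e-07), Acmsd 2.05 ± 0.37 (adjusted p = 7.28e-06), Afmid 1.89 ± 0.19 (adjusted p = 2.78e-11), Qprt 1.18 ± 0.21, Kmo 1.03 ± 0.23, Haao 0.65 ± 0.24 and Nadk 0.41 ± 0.10. Nampt went the other way (-0.32 ± 0.14, adjusted p = 0.0429). Its call was lost without any 1 of the nephron arrays (adjusted p = 0.0753 to 0.133). The same held for some single arrays of each of the other lines (0.0528 to 0.085). The Haao call was lost without nephron array 1 (adjusted p = 0.0749) or 3 (0.0607). Kynu did not differ detectably (0.38 ± 0.39). Proximal tubule markers were higher in the same comparison for 13 of 20, with a median of 0.70.

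The endothelial line had 6 of 9 genes lower than in the mean of the others and none higher (40.9 percent of all genes called, 20.2 percent lower). The log2 difference was -1.75 ± 0.37 for Acmsd, -1.28 ± 0.19 for Afmid, -1.05 ± 0.21 for Qprt and -0.99 ± 0.34 for Nmrk1, and 10 of 20 proximal tubule markers were lower. Without the first endothelial array the calls of Haao (adjusted p = 0.194) and Nmrk1 (0.0995) were lost, and without the second likewise (0.0906 and 0.0583). In the myeloid line 3 genes were lower (37.4 percent of all genes called), with differences of -1.87 ± 0.34 for Nmrk1, -1.08 ± 0.19 for Afmid and -0.27 ± 0.10 for Nadk, whose call was lost without myeloid array 1 (adjusted p = 0.057) or 3 (0.164). In the interstitial line none was called by limma at this threshold (32.4 percent of all genes called), and 2 had an unadjusted p under 0.05, the largest values being -0.90 ± 0.39 for Kynu, 0.67 ± 0.34 for Nmrk1 and 0.47 ± 0.19 for Afmid. Acmsd read 10.30, 10.06 and 11.01 in that line, 8.63, 8.94 and 9.85 in the endothelial line, and 12.03, 11.99 and 11.94 in the nephron line.

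Over the 17 TRAP groups the 9 genes spanned very different ranges. The group mean of Acmsd ran from 11.99 in the nephron line without surgery down to 6.38 in the myeloid line after IRI, a log2 difference of 5.61. In that order the groups nephron without surgery (11.99 ± 0.04 SD), wild-type background sham (11.95 ± 0.02) and nephron at 4 h (11.92 ± 0.11) overlapped, nephron sham (11.71 ± 0.11) lay below them, and interstitial without surgery (10.45 ± 0.49) came next. The levels from interstitial without surgery down to myeloid sham (9.02 ± 0.50) each overlapped their neighbour in the order. Nephron IRI at 24 h (8.47 ± 0.19) overlapped endothelial IRI (8.50 ± 0.05), and interstitial IRI (7.39 ± 0.64) and myeloid IRI (6.38 ± 0.30) were the lowest.

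Nampt spanned 1.13 log2 units, from 11.71 ± 0.04 in the wild-type background sham to 10.58 ± 0.08 in the nephron line at 24 h, and below its first place in the order each group overlapped the next. Nadk spanned 1.31, from 11.85 ± 0.07 in nephron sham to 10.54 ± 0.10 in endothelial IRI. Kynu spanned 4.26, from 10.69 ± 0.56 in the wild-type background sham to 6.44 ± 0.21 in the interstitial line without surgery, and below its first place each group overlapped its neighbour. Nmrk1 spanned 3.80, Kmo 3.66, Afmid 3.31, Qprt 3.26 and Haao 2.85. Nephron groups without IRI were at or near the top of the order for Acmsd, Afmid, Nmrk1, Nadk, Haao, Kmo and Qprt. For Kmo and Qprt the wild-type background sham was above them.

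**Figure D2:**
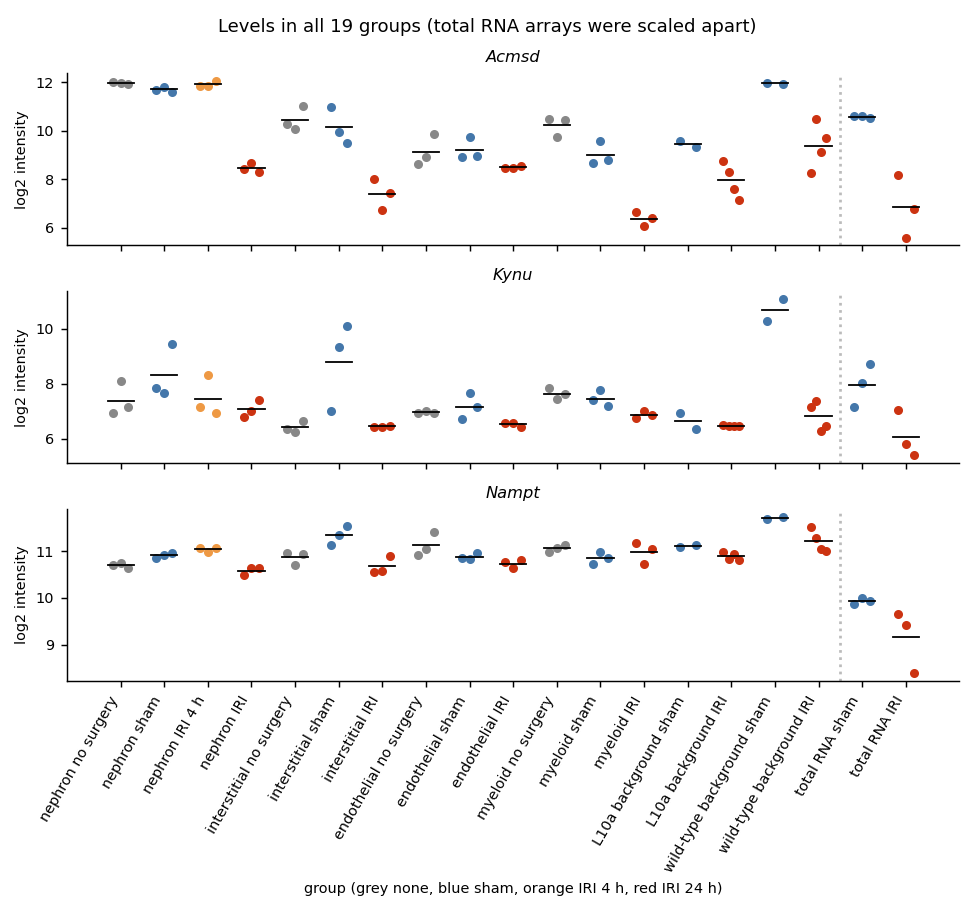
Log2 intensity of Acmsd, Kynu and Nampt in all 57 arrays, with the 19 groups on the x axis, a point per array coloured by treatment and a bar at each group mean. A dotted line sets off the total RNA arrays, which were scaled apart. Acmsd drops after IRI in most pairs of groups, Kynu is highest in the wild-type background sham (mean 10.69), and the means of Nampt in TRAP groups run from 10.58 to 11.71.

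Over the 17 TRAP groups the group means of several of these genes ran together, and those of Kynu less so. Pearson's r was 0.98 for Kmo and Haao, 0.94 for Qprt and Haao, 0.91 for Acmsd and Kmo, and 0.90 for Afmid and Nmrk1, whereas it was 0.37 for Acmsd and Nampt and -0.39 for Nampt and Nadk. Kynu had 0.38 with Afmid, 0.59 with Acmsd and 0.72 with Nampt. These are descriptions over group means that share lines and treatments. Genes with provisional names (such as Gm, Rik or LOC names) and olfactory receptor genes were left out of the search for similar genes. Among the remaining genes tested, those most like Acmsd in this sense were Slc22a7 (0.976), Glyctk (0.968), Amacr (0.967), Bphl (0.966) and Ugt8a (0.965). Those most like Qprt were Cryl1 (0.981), Fuca2 (0.973), Slc6a13 (0.964), Sqle (0.964) and Cryzl2 (0.962), and those most like Nampt were Nisch (0.927), Ap3b1 (0.921), Dmxl1 (0.902), Elp2 (0.901) and Gtf3c3 (0.896).

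After IRI the interstitial arrays also had lower levels, with 8 of the 9 genes lower and none higher (39.1 percent of all genes called, 19.9 percent lower). Acmsd read 10.97, 9.94 and 9.50 in sham and 8.01, 6.73 and 7.43 after IRI, a fall of 2.75 ± 0.45 on the log2 scale (adjusted p = 3.08e-06). Qprt read 10.56, 10.42 and 10.53 in sham and 8.86, 8.57 and 8.23 after IRI, a change of -1.95 ± 0.25 (adjusted p = 3.89e-08). Both sets of arrays were clear of each other. Kmo (-2.44 ± 0.28), Kynu (-2.35 ± 0.48), Nmrk1 (-2.04 ± 0.42), Afmid (-1.94 ± 0.24), Haao (-1.92 ± 0.29) and Nampt (-0.67 ± 0.17, adjusted p = 0.00108) also fell, and Nadk overlapped sham (-0.08 ± 0.12). In the same arrays 18 of 20 proximal tubule markers were lower (median -1.41), and their summed intensity ran from 100478 to 112741 in sham and from 42493 to 44796 after IRI. Interstitial markers summed to 20273 to 24022 in sham and 17367 to 22655 after IRI, ranges that overlapped. Whether the proximal tubule RNA in these arrays carried the changes was not tested.

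Kynu was also the single gene of the 9 that was called between sham and no surgery in the interstitial line. There 10.1 percent of all genes were called, 5.37 percent higher and 4.70 percent lower. Kynu read 6.38, 6.25 and 6.67 without surgery and 7.00, 9.33 and 10.11 in sham, and 6.45, 6.44 and 6.49 after IRI. The sham arrays were above the others but widely spread, with an SD of 1.62. The sham increase was 2.38 ± 0.48 (adjusted p = 0.000874). It was not called when these groups were fitted alone (adjusted p = 0.128), where the error came from the spread pooled over those groups. By limma 3 of the 9 had an unadjusted p under 0.05 in the main fit. Among them Nampt was at 0.47 ± 0.17 (adjusted p = 0.0608). It was called in some alternatives, such as quantile normalization (0.0139) and array weights (0.00137).

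The endothelial arrays had 5 of the 9 genes lower after IRI (42.8 percent of all genes called, 21.7 percent lower): Kmo (-1.51 ± 0.28), Haao (-1.15 ± 0.29), Nmrk1 (-1.06 ± 0.42, adjusted p = 0.0362), Qprt (-0.94 ± 0.25) and Nadk. Nadk read 11.47, 11.42 and 11.47 in sham and 10.65, 10.47 and 10.51 after IRI. The sham arrays sat close together and far above the IRI arrays, a change of -0.91 ± 0.12 (adjusted p = 3.87e-08). Acmsd read 8.92, 9.74 and 8.98 in sham and 8.47, 8.47 and 8.55 after IRI, and its change of -0.72 ± 0.45 was not called (adjusted p = 0.197). With these groups fitted alone, Acmsd was called at the same size (adjusted p = 0.0204). Afmid read 8.83, 8.93 and 8.83 in sham and 9.39, 9.31 and 9.27 after IRI, with no overlap, but the change of 0.46 ± 0.24 was not called (adjusted p = 0.115). After quantile normalization it was 0.58 and called (adjusted p = 0.0366). Afmid was also called with array weights (adjusted p = 0.0196) and with these groups fitted alone (0.00063). The Nmrk1 call was lost when any array other than the first sham array was left out, with adjusted p of 0.0562 to 0.123. Of 20 proximal tubule markers 5 were lower and 1 was higher here. In the same arrays 8 of 10 macrophage markers were lower, with sums of 32877 to 37618 in sham and 14782 to 22872 after IRI, and 8 of 8 neutrophil markers were higher, with sums of 1503 to 3053 and 10152 to 11071. Their part in the changes of the 9 genes, Nadk included, was not tested.

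The myeloid arrays had 4 of the 9 genes lower after IRI (27.8 percent of all genes called, 14.6 percent lower). Acmsd read 8.67, 9.60 and 8.80 in sham and 6.66, 6.07 and 6.41 after IRI, with a wide gap between the groups (-2.64 ± 0.45, adjusted p = 9.13e-06). Kmo (-2.04 ± 0.28), Haao (-1.48 ± 0.29) and Qprt (-0.99 ± 0.25) also fell. Afmid (-0.42 ± 0.24), Nmrk1 (-0.67 ± 0.42) and Nampt (0.13 ± 0.17) overlapped sham. Of the 20 proximal tubule markers 16 were lower, with sums of 32103 to 62943 in sham and 17205 to 18097 after IRI. Of 8 neutrophil markers 7 were higher, with sums of 2558 to 3419 in sham and 15274 to 20295 after IRI, while macrophage sums ran from 50474 to 55237 and from 42685 to 49642. The part of these shifts in the changes of the 9 genes was not tested. Between sham and no surgery, none of the 9 genes was called in the myeloid line (1.58 percent of all genes called, 1.19 percent lower) or the endothelial line (0.850 percent), by limma at an adjusted p under 0.05. At an unadjusted p under 0.05 there were 2 in the myeloid and 0 in the endothelial line, and array weights called 4 in the myeloid line. The largest value was Acmsd in the myeloid line, -1.20 ± 0.45 (adjusted p = 0.221).

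**Figure D3:**
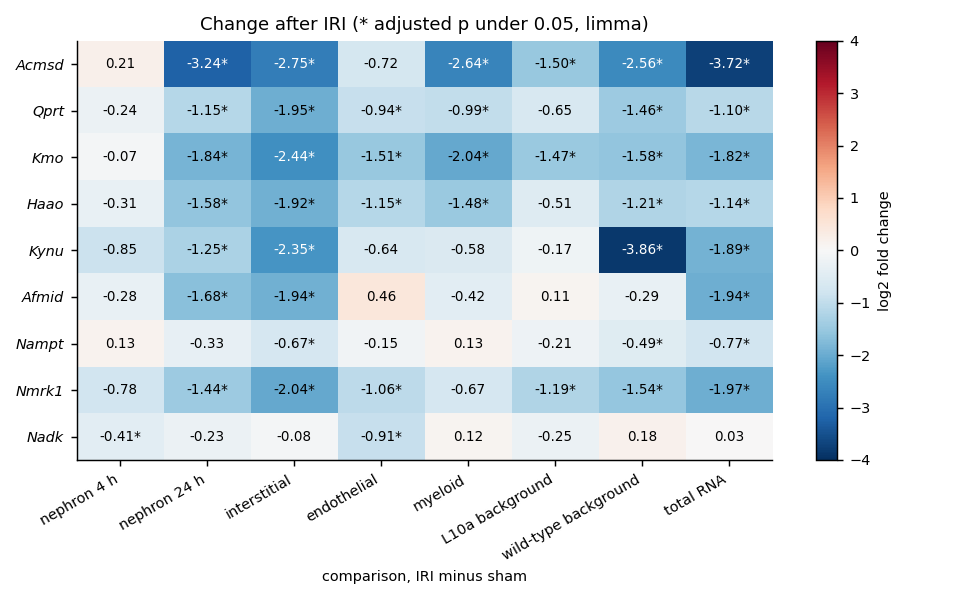
Log2 fold change of each of the 9 genes (y axis) in 8 IRI comparisons against sham (x axis), coloured from blue (lower) to red (higher), with the value in each cell and an asterisk at adjusted p under 0.05. The nephron column at 4 h has 1 asterisk and that at 24 h has 7, and the interstitial column has 8.

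Differences between lines were tested by setting the IRI response of a line against the average over the remaining lines. Of 36 such differences 8 were called, a share near that of all genes, of which 15.5 to 28.5 percent were called in these 4 tests. In the endothelial line (28.5 percent of all genes called) Acmsd differed by 2.16 ± 0.52 (adjusted p = 0.0014), Afmid differed by 1.80 ± 0.27 (adjusted p = 2.18e-06), and Nadk fell more (-0.85 ± 0.14, adjusted p = 8.89e-06). In the same test 11 of 20 proximal tubule markers had a higher response. In the interstitial line (15.5 percent called) Afmid (-1.39 ± 0.27), Qprt (-0.92 ± 0.29, adjusted p = 0.0245) and Nampt (-0.55 ± 0.19, adjusted p = 0.0409) fell more. The calls of Qprt and Nampt were lost without the third interstitial sham array (adjusted p = 0.0575 and 0.15), that of Qprt also without the first sham array (0.0559) or the third IRI array (0.115), and that of Nampt also without most of the other arrays, one at a time. In the nephron line (23.0 percent called) only Afmid fell more (-1.04 ± 0.27, adjusted p = 0.00401), and the difference for Acmsd was -1.21 ± 0.52 (adjusted p = 0.0873). In the myeloid line (18.2 percent called) Nadk differed by 0.52 ± 0.14 (adjusted p = 0.00572).

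The background arrays, which hold no Cre, also carried these messages and also changed. In wild-type sham, without any tag, Acmsd read 11.97 and 11.93, Qprt 11.60 and 11.53, Kmo 11.87 and 11.83, and Haao 11.73 and 11.79. The differences of nephron sham from wild-type sham were -0.23 ± 0.50, -0.14 ± 0.28, -0.18 ± 0.31 and 0.09 ± 0.33, and none was called. Other genes of the set did differ in that test (5 of 9 called, 48.3 percent of all genes). Nephron sham was higher for Nmrk1 (1.37 ± 0.46, adjusted p = 0.0126), Afmid (1.28 ± 0.26, adjusted p = 6.59e-05) and Nadk (1.09 ± 0.13, adjusted p = 3.86e-09), and lower for Kynu (-2.37 ± 0.54) and Nampt (-0.80 ± 0.18). Without either of the wild-type sham arrays the Nmrk1 difference was not called (adjusted p = 0.0645 and 0.0618). The arrays were scaled to a common range, so they do not say how much RNA each pulldown held.

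After IRI 7 of the 9 genes were lower in the wild-type background (37.9 percent of all genes called, 20.2 percent higher and 17.7 percent lower). Kynu read 10.30 and 11.09 in sham and 7.18, 7.39, 6.29 and 6.48 after IRI, with a wide gap between the groups, and was 14.5-fold lower (-3.86 ± 0.51, adjusted p = 4.02e-08). Acmsd read 8.25, 10.49, 9.12 and 9.71 after IRI, a scattered group that still lay below sham (-2.56 ± 0.48). Kmo (-1.58 ± 0.30), Nmrk1 (-1.54 ± 0.44), Qprt (-1.46 ± 0.27), Haao (-1.21 ± 0.31) and Nampt (-0.49 ± 0.18, adjusted p = 0.0228) were lower, and Afmid (-0.29 ± 0.25) and Nadk (0.18 ± 0.13) overlapped sham. The Nampt call was lost without either sham array or without IRI array 3 or 4 (adjusted p = 0.0642 to 0.138). Summed proximal tubule markers ran from 130991 to 133638 in sham and from 70936 to 101544 after IRI. Set against this background after IRI, the nephron arrays differed for 3 of the 9 genes (44.0 percent of all genes called): Nmrk1 was higher (1.47 ± 0.39, adjusted p = 0.00183), Nadk was higher (0.69 ± 0.11) and Nampt was lower (-0.63 ± 0.15). Acmsd (-0.92 ± 0.42, adjusted p = 0.0716), Qprt (0.18 ± 0.24) and Kmo (-0.44 ± 0.26) overlapped it. Without the first wild-type IRI array 5 genes were called, Acmsd among them (-1.30, adjusted p = 0.0101). Against the same arrays 6 genes were lower in the interstitial line (34.1 percent of all genes called), 5 were lower in the endothelial line (49.6 percent), and in the myeloid line 5 were lower and Nadk was higher (58.2 percent). These comparisons share the wild-type arrays.

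In the L10a background 3 of the 9 genes were lower after IRI (38.4 percent of all genes called, 19.4 percent lower): Acmsd (-1.50 ± 0.48, adjusted p = 0.0107), Kmo (-1.47 ± 0.30) and Nmrk1 (-1.19 ± 0.44, adjusted p = 0.0291). Acmsd read 9.58 and 9.34 in sham and 8.75, 8.32, 7.61 and 7.15 after IRI. Without the first sham array 1 gene of the 9 was still called, and the Acmsd change of -1.38 was not (adjusted p = 0.106). The Nmrk1 call was lost without either sham array (adjusted p = 0.139 and 0.105).

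In whole kidney total RNA 8 of the 9 genes were lower after IRI (31.5 percent of all genes called, 15.7 percent lower). Acmsd read 10.62, 10.62 and 10.51 in sham and 8.18, 5.60 and 6.79 after IRI, tight in sham and scattered after IRI, and was 13.2-fold lower (-3.72 ± 0.45, adjusted p = 1.97e-08). Nmrk1 read 9.85, 8.70 and 5.99 after IRI and Haao 8.87, 8.36 and 10.42, so the third array was the lowest for one and overlapped sham for the other. Nmrk1 changed by -1.97 ± 0.42, Afmid by -1.94 ± 0.24, Kynu by -1.89 ± 0.48, Kmo by -1.82 ± 0.28, Haao by -1.14 ± 0.29, Qprt by -1.10 ± 0.25 and Nampt by -0.77 ± 0.17 (adjusted p = 0.000351). Nadk did not pass the test (0.03 ± 0.12), and without the third IRI array it was higher (0.28, adjusted p = 0.0322). Without the second IRI array Haao was at -0.71 (adjusted p = 0.0503). Fitted alone, with the spread pooled over both groups, the 6 arrays gave 3 calls among the 9 genes, and Nampt (adjusted p = 0.308), Nmrk1 (0.358), Qprt (0.182), Kynu (0.151) and Haao (0.333) were not among them.

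Other genes of NAD metabolism were followed as lists, 55 of whose members were tested. In the nephron line at 24 h 8 were higher, 23 lower and 24 not called, where 13.8 percent of all genes were higher and 14.7 percent lower. At 4 h 7 were higher and 5 lower, near the share of all genes (18.4 percent called). Of the entry enzymes, Tdo2 (-0.11 ± 0.05) and Ido1 (-0.08 ± 0.07) were not called and had sham means of 5.28 and 5.45 on the log2 scale, close to the filter at 5. Ido2 had means of 9.25 ± 0.09 SD in sham, 8.41 ± 0.36 at 4 h and 7.11 ± 0.05 at 24 h. It was lower at 4 h (-0.84 ± 0.21 SE, adjusted p = 0.00342) and at 24 h (-2.14 ± 0.21, adjusted p = 1.42e-10).

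The side branches of kynurenine breakdown, which lead to kynurenate and to glutaryl-CoA, had 5 of 7 members lower and none higher at 24 h. Aadat (-2.14 ± 0.33, adjusted p = 1.46e-06) and Kyat3 (-1.60 ± 0.32), both aminotransferases of kynurenine, and Dhtkd1 (-1.71 ± 0.42) and Gcdh (-1.16 ± 0.21), of the downstream mitochondrial route, all fell. At 4 h Aadat (-0.09 ± 0.33), Kyat3 (-0.16 ± 0.32), Dhtkd1 (0.28 ± 0.42) and Gcdh (-0.07 ± 0.21) were not called.

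Of 5 genes for the use of nicotinic acid and the final steps to NAD, 3 were lower and 1 higher at 24 h. Nmnat1, the nuclear adenylyltransferase, fell by 1.15 ± 0.37 (adjusted p = 0.0152), and Nmnat3 rose by 0.47 ± 0.11 (adjusted p = 0.000715) after having been lower at 4 h (-0.39 ± 0.11). Naprt, which starts from nicotinic acid, was higher at 4 h (0.53 ± 0.19, adjusted p = 0.0413) and lower at 24 h (-0.55 ± 0.19, adjusted p = 0.0217). Nadsyn1, the NAD synthetase, was lower at 24 h (-0.63 ± 0.19, adjusted p = 0.0116). Of 8 salvage and phosphorylation genes 5 were lower and 1 higher at 24 h, the lower ones including Nudt12, an NADH hydrolase (-1.17 ± 0.26). Pnp, the purine nucleoside phosphorylase, was higher at 4 h (0.85 ± 0.16) and at 24 h (0.54 ± 0.16), and none of 3 nicotinamide clearance genes was called, Nnmt at 0.34 ± 0.20.

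Among 18 NAD-consuming enzymes 3 were higher, 4 lower and 11 not called at 24 h, not far from the 28.5 percent called over all genes. Parp14 rose by 1.01 ± 0.18 (adjusted p = 1.37e-05), Bst1, a cyclase of the Cd38 family, by 0.83 ± 0.22 and Sirt1 by 0.49 ± 0.13, and Sirt1 was also higher at 4 h (0.71 ± 0.13, adjusted p = 4.99e-05). Sirt3, the mitochondrial sirtuin, fell by 1.06 ± 0.15 (adjusted p = 3.52e-07), and Parp1 was not called (-0.28 ± 0.13, adjusted p = 0.115). Cd38 was not analysed here. Of 9 transporters 3 were higher and 3 lower: Slc7a5, which carries tryptophan and kynurenine, rose by 1.15 ± 0.22 and was already higher at 4 h (0.88 ± 0.22), and its partner Slc3a2 rose by 0.71 ± 0.12. Slc22a13, a nicotinate and urate carrier, fell by 2.07 ± 0.40 (adjusted p = 6.96e-05). Both regulators tested fell at 24 h, the coactivator Ppargc1a by 1.21 ± 0.43 (adjusted p = 0.0288) and the nuclear receptor Hnf4a by 0.83 ± 0.25, and Ppargc1a stood at -0.01 ± 0.43 at 4 h.

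**Figure D4:**
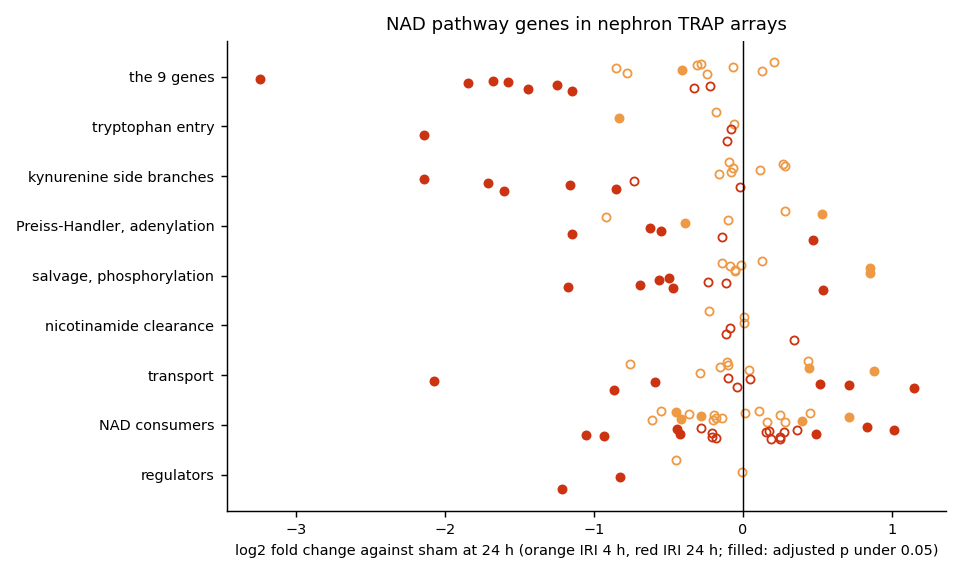
Log2 fold change against the 24 h sham (x axis) in the nephron line for each gene of 9 groups of the pathway (y axis), in orange at 4 h and in red at 24 h, filled where the adjusted p was under 0.05. At 24 h the filled points of the 9 genes and of the kynurenine side branches lie to the left of 0, whereas transporters and NAD consumers have filled points on both sides.

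In the other populations the wider lists were counted in the same way after IRI. Of the 55 genes 31 were lower and 5 higher in the interstitial line (39.1 percent of all genes called), 28 and 11 in the endothelial line (42.8 percent), 21 and 9 in the myeloid line (27.8 percent), 22 and 3 in total RNA (31.5 percent), 27 and 5 in the wild-type background (37.9 percent), and 22 and 7 in the L10a background (38.4 percent). Calls over all genes were split about evenly between higher and lower in these comparisons. Between sham and no surgery in the nephron line none of the 55 was called by limma, and 6 had an unadjusted p under 0.05.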

How the data were processed

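Probe set intensities are the unit of the deposited table. Per the submitters' processing notes the authors summarised the arrays by RMA, using Affymetrix Expression Console (version 1.3.1). These intensity values ran from 7.15 to 19571, and their log2 was taken here. The platform annotation gave a single symbol to 21789 of the 35556 probe sets, more than one to 1621 and no symbol to 12146. For genes with several probe sets the one with the highest mean was kept. Genes with log2 intensity above 5 in at least 3 arrays were tested.

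Group means were fitted over all 57 arrays by limma 3.58.1 (R 4.3.3) with moderated errors. The residual SD had a median of 0.154 at 38 degrees of freedom. Within a comparison the Benjamini-Hochberg adjustment covered all 19302 genes, and an adjusted p under 0.05 was called. Errors are standard errors of the fit unless given as SD. The fit was tested on simulated data in which each gene had the same spread in all groups. That test does not cover groups of unequal spread. Figures were drawn with matplotlib 3.10.9.

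The promoter and position of 1 of the 9 genes are not reported here. The 9 genes and the lists were chosen with earlier results of these data known. The text names the 9 genes, 10 further genes fixed by name, pathway genes called with a change of at least 2-fold in the nephron line, and single members given as examples, which were chosen after their values were seen. Markers came from lists written from general knowledge. Replicates are labelled biological without more. The p-values rest on 1 estimate of spread per gene, pooled over all 19 groups, total RNA included. They do not measure the spread of the compared groups alone. For Nmrk1 the SD was 1.98 in total RNA after IRI and 0.07 in nephron sham. Replicate numbers paired no samples by the criterion used (correlation of deviations above 0.1 in every pair). Alternatives covered the filter, quantile normalization, an offset of 32 before the log, the mean of probe sets, array weights, trended and robust eBayes, the replicate block, the compared groups alone, each replicate left out, no surgery as control and, added after the data were seen, a fit of TRAP arrays only. The highest correlation between arrays was 0.9976, so none was treated as a duplicate. The number of arrays limits the precision.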

Additional observations from a re-analysis of the deposited data

Results flagged for a closer look

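The nephron response differed between 4 h and 24 h after IRI by the test of the difference itself for 6 genes. In that test 27.5 percent of all genes were called, 14.8 percent higher and 12.7 percent lower. The log2 differences of 24 h minus 4 h were -3.46 for Acmsd, -1.78 for Kmo, -1.39 for Afmid, -1.27 for Haao, -0.91 for Qprt and -0.46 for Nampt. The Nampt call was lost when any single array of these groups was left out (limma adjusted p = 0.0537 to 0.117). Time and the separate submission of the 4 h arrays cannot be told apart here.

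The 4 lines differed in their IRI response, each against the mean response of the other 3, in 8 of 36 tests, near the 15.5 to 28.5 percent called over all genes in these tests. For Afmid the difference was -1.04 in the nephron line, -1.39 in the interstitial line and 1.80 in the endothelial line. For Acmsd it was 2.16 in the endothelial line. For Qprt it was -0.92 and for Nampt -0.55 in the interstitial line. For Nadk it was -0.85 in the endothelial line and 0.52 in the myeloid line. These 4 sets of differences are built from the same arrays. In the 18 sets of 4 arrays that could be checked for a single array far from the rest, none was found, and chance would give such a finding in about 1 of 20.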

How the results depend on the processing

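Counts of called genes among the 9 moved by more than 1.5 times as follows. With array weights they went from 3 to 6 in the L10a background after IRI, 1 to 2 at 4 h, 1 to 3 for interstitial and 0 to 4 for myeloid sham against no surgery, 0 to 1 for the interstitial line at rest, and 3 to 5 (nephron) and 5 to 8 (endothelial) against wild-type IRI. For response differences array weights gave 2 in the nephron, 8 in the interstitial, 5 in the endothelial and 4 in the myeloid line. The compared groups alone gave 8 for endothelial IRI, 3 for total RNA, 2 at 4 h, 2 for nephron and 0 for interstitial sham against no surgery, 3 for the interstitial line at rest, and 2, 6, 5 and 4 for the responses in that order. TRAP arrays alone gave 5 in the L10a background, 2 at 4 h, 3 for interstitial sham, 2 for the interstitial line at rest, and 2, 5 and 3 for the nephron, interstitial and myeloid responses. Quantile normalization gave 2 for interstitial sham, 1 for the interstitial line at rest and 2 for the myeloid response. A stricter filter gave 1 and 2 for those last 2, and an offset before the log gave 2 for the nephron and 2 for the myeloid response.

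Leaving out 1 array at a time gave 5 to 7 called genes for nephron IRI at 24 h, 8 to 8 for interstitial, 4 to 5 for endothelial, 4 to 4 for myeloid, 7 to 9 for total RNA, 1 to 4 for the L10a and 6 to 7 for the wild-type background, 0 to 1 at 4 h and 5 to 5 for 24 h against 4 h. It gave 1 to 2 for interstitial sham, 0 to 0 for the other shams, 6 to 8, 0 to 1, 4 to 6 and 2 to 3 for the 4 lines at rest, and 1 to 1, 1 to 4, 3 to 3 and 1 to 3 for their responses (nephron, interstitial, endothelial, myeloid). Against wild-type IRI it gave 3 to 5, 6 to 7, 5 to 7 and 6 to 6, and against wild-type sham 4 to 5. With 1 array left in a group, its spread was assumed to be that of the other groups.

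With the replicate number as a block, 232 of the single-gene calls kept their side of the threshold, 1 was lost and 1 gained. Wild-type IRI went from 7 to 6, as Nampt (-0.45) had an adjusted p of 0.0548, and interstitial against wild-type IRI from 6 to 7. Over all alternatives 4446 single-gene values stayed called or stayed not called, 126 gained a call and 72 lost one. Of the values called in the main fit or the alternative, 0 reversed direction. For values called in neither, direction was not compared. Counts over all genes also moved, for total RNA fitted alone (6072 to 648), myeloid IRI with array weights (5367 to 9665), the 4 h comparison fitted alone (3545 to 5558) and the L10a background without its first sham array (7419 to 4944). Array weights took the 4 h comparison to 6405, that of 24 h against 4 h from 5312 to 8030, and the responses from 4435 to 7882 (nephron), 3000 to 6123 (interstitial), 5509 to 9413 (endothelial) and 3517 to 7996 (myeloid), where fitting these groups alone gave 4936 (interstitial) and 5402 (myeloid). Sham against no surgery moved from 335 to between 124 and 2410 in the nephron, from 1945 to between 197 and 3155 in the interstitial, from 164 to between 14 and 449 in the endothelial and from 305 to between 26 and 3210 in the myeloid line. The cause was not tested.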

Other observations

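Kynu varied between arrays of 1 group more than the other 8 genes in the interstitial sham group. The genes at both ends of its Pearson correlation over the 57 arrays, after removal of group means, are given here. How many genes varied with it was not counted. The highest values were 0.82 with Acot3 and 0.78 with Hacl1, both of peroxisomal fatty acid metabolism. Next came 0.77 with the transporter Slc7a12, 0.75 with Cyp2d22 and 0.74 with Lyplal1. The lowest values were -0.78 with Odc1, the ornithine decarboxylase, and -0.77 with Smcp. This was looked for after the spread of Kynu had been seen and is a description without a test. In the interstitial sham arrays Kynu read 7.00, 9.33 and 10.11, Acot3 7.90, 9.61 and 10.18, Slc7a12 6.27, 9.55 and 10.50, and Hacl1 9.66, 10.45 and 10.98. In the nephron sham arrays Kynu read 7.85, 7.66 and 9.46, and Acot3 8.34, 8.13 and 9.04. The same array was highest for both genes in each group.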
